A study of Mus musculus with 2 samples.

Results

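Chemokines and chemokine receptors were read from RNA-Seq of brown adipogenesis as every gene with values whose symbol began with Ccl, Ccr, Cxcl, Cxcr, Cx3cl or Cx3cr followed by a number, with pseudogene rows left out. The rule found 56 of the 23361 genes with values, 37 of them ligands and 19 receptors. Cxcl15 also matched, but its row held no values. The D0 library was made from brown preadipocytes, the precursor cells of brown fat, isolated from newborn C57BL/6 mice, from the brown fat between their shoulder blades. The D7 library was made from the brown adipocytes into which such cells had differentiated. There was 1 library per stage. The isolated cells were grown in medium with 20% serum. Both cultures had then been kept for 4 days before induction in medium with 10% serum, 0.1 μM insulin and 1 nM of the thyroid hormone T3. From day 0 the D7 culture also received an induction mixture for 2 days. It held the glucocorticoid dexamethasone at 2 μg/ml, the cyclooxygenase inhibitor indomethacin at 0.125 mM and the phosphodiesterase inhibitor IBMX at 0.5 mM. The labels call the cells primary cultures, while the methods describe immortalization of the preadipocytes with large T antigen, other concentrations of insulin and dexamethasone, and less serum during growth. Neither states whether cells of several animals were pooled.

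Chemokines are small secreted proteins that guide the movement of leukocytes, and they signal through G protein-coupled receptors on the cells that they attract. They are grouped as CC, CXC or CX3C by the spacing of conserved cysteines. In adipose tissue, Ccl2 draws monocytes that carry Ccr2, and Cxcl12 binds both Cxcr4, which signals through G proteins, and Cxcr7 (now Ackr3), an atypical receptor that takes up its ligand.

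Values are FPKM, that is, fragments per kilobase of transcript scaled to sequencing depth, so levels can be set side by side between genes. The ratio of D7 to D0 was taken for genes above 0 in both libraries, and a gene was called higher or lower at a 2-fold difference. With 1 library per stage there was no replicate check and no p-value. The fragments behind each value were recovered from the whole-number steps of genes with a single exon. The depth recovered this way was 21468465 fragments for D0 and 18266798 for D7. Intervals of a ratio are 95% Clopper-Pearson intervals on these fragments, which cover counting error only. A gene listed at 0 was given an upper limit worth 3 fragments. Over all genes above 0 in both libraries the median ratio was 1.01. Brown adipocyte genes followed the labels, since Ucp1, Cidea, Elovl3 and Cox8b were at 0 at D0 and at FPKM of 4.57 to 253 at D7, and Adipoq went from 0.221 to 943. Of 80 genes of ribosomal proteins, only Rpl10l and Rpl3l were at 0 in a library.

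Ligand transcripts were abundant in preadipocytes and much lower in adipocytes, whereas most receptor transcripts were scarce at both stages and several were higher in adipocytes. The summed FPKM of the 37 ligands was 912 in the D0 library and 146 in the D7 library, or 0.160 of the D0 sum. For the 19 receptors the sums were 16.8 and 12.0, a ratio of 0.714. Of 23 ligands above 0 in both libraries, 4 were higher and 11 lower, or 17.4% and 47.8%, beside 18.5% higher and 13.2% lower among all 14986 genes above 0 in both. Of 9 such receptors, 6 were higher and 2 lower, or 66.7% and 22.2%. The median log2 ratio was -0.49 for ligands and 1.41 for receptors, against 0.015 for all genes. This contrast was not shared by all classes. The CXC ligands had a median of -2.11, but the 13 CC ligands above 0 in both had 0.04, with 3 higher and 4 lower. All 4 such CC receptors were higher, but the 4 such CXC receptors had a median of -1.36, with 1 higher and 2 lower. When members were kept only if the interval of the ratio excluded 1, 11 ligands were lower and 2 higher at 2-fold. Of the 5 receptors kept, 4 were higher and 0 lower, while Cxcr7, at a ratio of 0.512, was below 1 but inside 2-fold. The share of all genes under this filter is not given here. The receptor count rested on low values, because 1 receptor reached an FPKM of at least 1 at D0 and 2 at D7, and 0 receptors passed 2-fold in either direction after adding 1 to each FPKM. In whole-culture RNA, fewer cells of a type and less RNA per cell cannot be told apart.

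**Figure D1:**
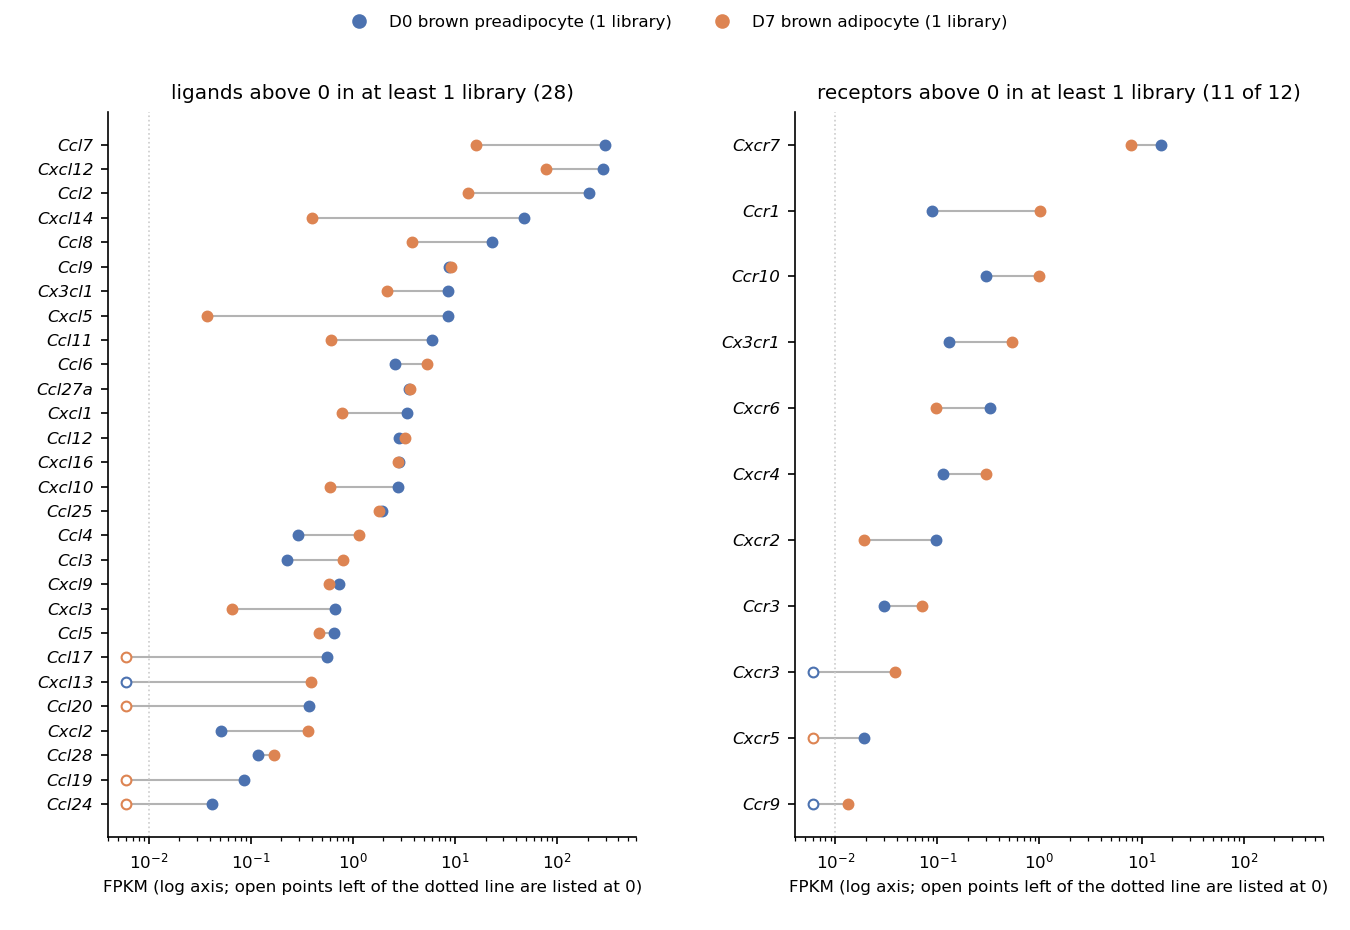
FPKM at D0 (blue) and D7 (orange) on a log axis for the 28 ligands and 11 of the 12 receptors above 0 in at least 1 library, with open points for values listed at 0. The highest ligand is Ccl7 with 297 at D0, while Cxcr7 is the only receptor above 10 in a library, at 15.5.

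Cxcl12, Ccl7 and Ccl2 held most of the ligand transcript. Together they made up 86.1% of the ligand sum at D0 and 73.7% at D7. Ccl7, a monocyte attractant, stood at 297 at D0 and 16.2 at D7, and it alone was 32.6% of the D0 sum. Cxcl12, the ligand of Cxcr4 and Cxcr7, stood at 282 and 78.1. Its share of the ligand sum was 31.0% at D0 and 53.5% at D7, so it was the most abundant ligand of the adipocyte library although its own level was lower there. Without these 3 genes the ligand sum was still 126 at D0 and 38.4 at D7, and their ratio was 0.304.

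**Figure D2:**
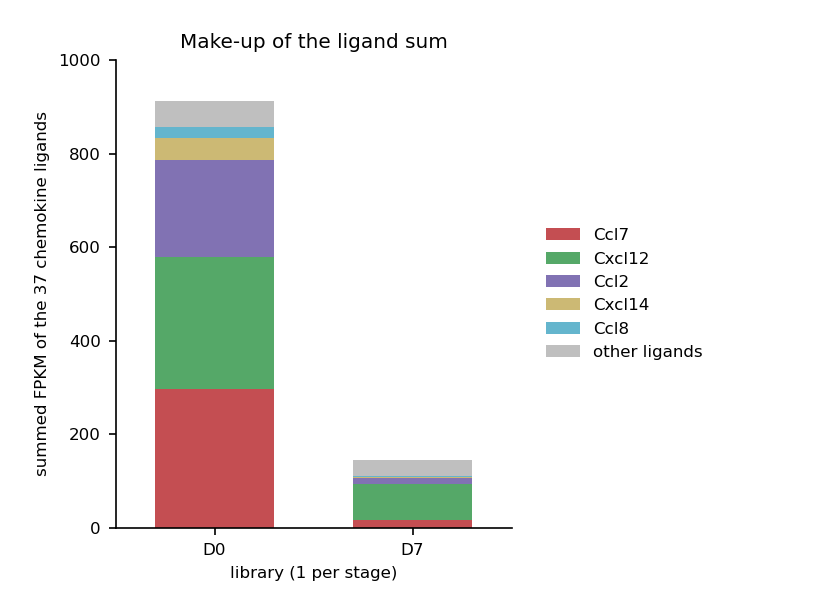
Stacked bars of the summed FPKM of the 37 ligands in each library (1 library per stage, no error bars). The D0 bar reaches 912 and the D7 bar 146, and Cxcl12 (green) is the largest block at D7.

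The CC ligands that attract monocytes and eosinophils lie side by side on chromosome 11, and 4 of the 6 in that block were lower at D7. Ccl2 (chr11:82035571-82037453, plus strand) was at an FPKM of 206 at D0, from 2799 fragments, and at 13.3 at D7, from 154 fragments. That was 15.4-fold lower at D7, with a ratio of 0.0649 (interval 0.0549 to 0.0764), and its place among all genes by level went from 371 to 5176. Ccl7 (chr11:82045712-82047525, plus strand) was 18.3-fold lower, with a ratio of 0.0546 (0.0469 to 0.0634). Ccl8, a monocyte chemokine that in mice binds Ccr8, was at 23.0 and 3.83, a ratio of 0.166 (0.103 to 0.258). Ccl11, or eotaxin, which attracts eosinophils through Ccr3, was at 5.94 and 0.614, a ratio of 0.103 (0.0479 to 0.195). Ccl12, a further mouse ligand of Ccr2, departed from its neighbours with 2.87 at D0 and 3.25 at D7, from 22 and 21 fragments. Its interval of 0.592 to 2.16 included 1. Ccl1, at the end of the block, was at 0 in both libraries. The sum over these 6 genes was 535 at D0 and 37.3 at D7.

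A second block of CC ligands on chromosome 11, with Ccl5, Ccl9, Ccl6, Ccl3 and Ccl4 (chr11:83525778-83664683), did not share that pattern. Its sum was 12.6 at D0 and 16.9 at D7, with 3 genes higher and 0 lower. Ccl9, a ligand of Ccr1, was at 8.87 and 9.12 from 539 and 471 fragments, a ratio of 1.03 (0.907 to 1.17), so the depth was enough to bound any counting difference within that interval. Ccl6, another ligand of Ccr1, was at 2.59 and 5.33, a ratio of 2.05 (1.52 to 2.80), just past the threshold. Ccl4, which attracts macrophages and T cells, was at 0.291 and 1.15 from 3 and 10 fragments, a ratio of 3.94 (1.02 to 22.3). Ccl3, which binds Ccr1, was at 0.229 and 0.811 from 3 and 9 fragments, and Ccl5, which binds Ccr1 and Ccr3, was at 0.662 and 0.471 from 5 and 3. The intervals of Ccl3 and Ccl5 included 1, so a difference was not detectable at this depth. Ccl9 and Ccl6 were thus the block's 2 members with more than 10 fragments in either library.

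**Figure D3:**
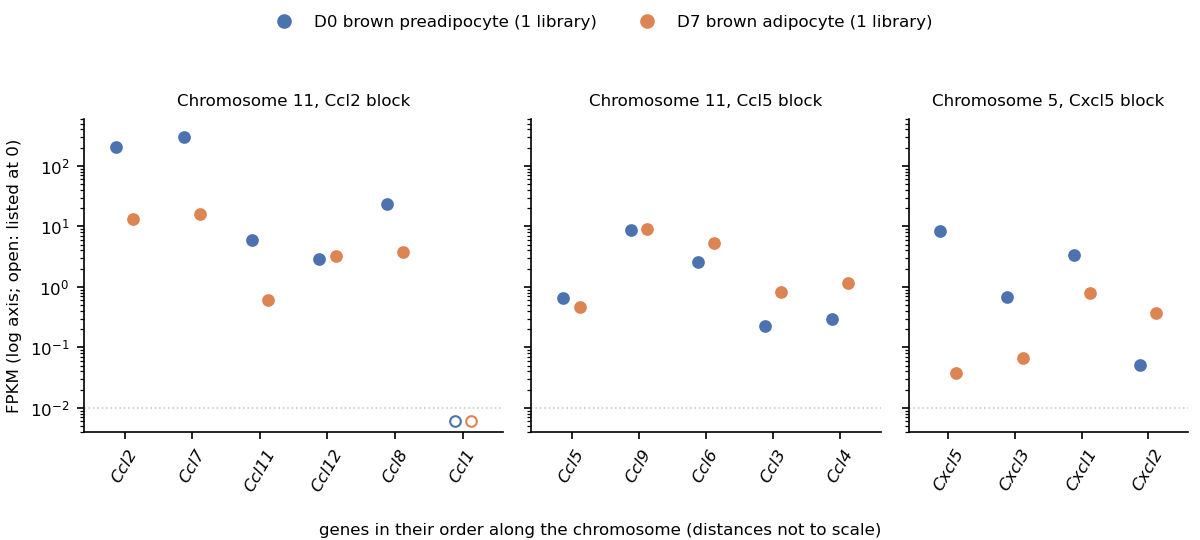
FPKM on a log axis at D0 (blue) and D7 (orange) for the members in 3 chromosomal blocks, in their order along the chromosome. Open points are values listed at 0. In the block with Ccl2, Ccl12 is the only gene above 0 whose D7 point is not below its D0 point, while in the block with Ccl5 the D7 point is lower for Ccl5 alone.

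Among the CXC ligands, 6 of the 9 above 0 in both libraries (66.7%) were lower and 1 (11.1%) was higher, beside 13.2% and 18.5% among all genes. The median log2 ratio of these CXC ligands was -2.11. Cxcl14 (chr13:56288643-56296551, minus strand), a chemokine that brown fat is known to secrete, was the fourth most abundant ligand at D0. It stood at 47.5 from 1681 fragments at D0 and at 0.399 from 12 fragments at D7, a ratio of 0.00841 (0.00433 to 0.0147), or 119-fold lower. Cxcl12 (chr6:117168535-117181367, plus strand) had 10295 and 2419 fragments and a ratio of 0.277 (0.265 to 0.289). Cxcl10, an interferon-responsive ligand of Cxcr3, was at 2.78 and 0.596, a ratio of 0.214 (0.0974 to 0.425). It overlaps Art3 on the opposite strand, and its deposited locus is shared with Cxcl11, which was at 0 in both libraries. Cxcl9, its other neighbour and also a Cxcr3 ligand, was at 0.735 and 0.583, and its interval of 0.478 to 1.30 included 1. Cxcl16, a membrane-bound ligand of Cxcr6, was at 2.85 and 2.75, a ratio of 0.965 (0.761 to 1.24).

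The neutrophil-attracting ligands of Cxcr2 among the members lie within 147 kb on chromosome 5 (chr5:90759360-90905938), and 3 of the 4 were lower at D7. Cxcl5 was at 8.55 from 256 fragments at D0 and at 0.0372 from 1 fragment at D7, a ratio of 0.00435 (0.000116 to 0.0259), the lowest of all members. Cxcl1 was at 3.39 and 0.785 from 56 and 11 fragments, a ratio of 0.232 (0.109 to 0.447). Cxcl3 was at 0.670 and 0.0659 from 12 fragments and 1 fragment, a ratio of 0.0983 (0.0023 to 0.664). Cxcl2 went the other way, at 0.0515 from 1 fragment and 0.365 from 6, a ratio of 7.08 with an interval of 0.858 to 325 that included 1. The sum of these 4 genes was 12.7 at D0 and 1.25 at D7, and Cxcl5 made up most of the D0 value. Genes whose symbols fall outside the rule were not counted in it.

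Inflammatory chemokine genes are known targets of NF-κB, so the promoters of RefSeq (GRCm38.p6) were searched for its motif, and the 4 printed here are those of the chromosome 5 CXC genes that held it. The 140 bases shown run from 170 to 31 bases before the start of each gene, 5′ to 3′ on the gene's own strand, and capitals mark matches to the 10-base κB consensus.
Cxcl1 (chr5:90891075-90891214, plus strand): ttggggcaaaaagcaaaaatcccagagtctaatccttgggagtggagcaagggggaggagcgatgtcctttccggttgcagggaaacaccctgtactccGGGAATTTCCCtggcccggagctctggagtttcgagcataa
Cxcl2 (chr5:90903729-90903868, plus strand): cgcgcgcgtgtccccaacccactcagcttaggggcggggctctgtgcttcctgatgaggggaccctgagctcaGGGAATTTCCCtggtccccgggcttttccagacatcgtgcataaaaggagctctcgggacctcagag
Cxcl3 (chr5:90785931-90786070, plus strand): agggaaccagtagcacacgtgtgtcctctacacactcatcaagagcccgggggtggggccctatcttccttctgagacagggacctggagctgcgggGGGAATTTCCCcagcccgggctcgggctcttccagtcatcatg
Cxcl10 (chr5:92348920-92349059, minus strand): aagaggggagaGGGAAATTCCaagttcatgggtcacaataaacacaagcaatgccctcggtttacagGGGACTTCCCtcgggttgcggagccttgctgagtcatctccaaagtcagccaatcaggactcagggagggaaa
Cxcl1, Cxcl2 and Cxcl3 carried the same 11 bases, in which matches overlap by all but 1 base, starting 71, 97 and 73 bases before the gene start. Of all 27025 promoters, 11 (0.0407%) held that run in the 250 bases before the start, on either strand. These 3 genes are close relatives, so their shared bases are not independent cases. Cxcl1 and Cxcl3 were lower at D7, and Cxcl2 was at 1 and 6 fragments with an interval that included 1. Any part of the shared bases in these ratios was not tested. Cxcl10 held separate matches starting 159 and 103 bases before its start.

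Promoters were found for 40 of the 56 members. Members named here without one were Ccl2, Ccl4, Ccl5, Ccl7, Ccl11, Ccl21c, Ccl24, Ccl26, Cxcl5, Cxcl11, Cxcl16, Cxcl17, Ccr7, Ccr10 and Cxcr5. In the 250 bases before the start, read on both strands, the κB consensus matched in 6 of 25 ligand promoters (Ccl9, Ccl20, Cxcl1, Cxcl2, Cxcl3 and Cxcl10), or 24%, in 1 of 15 receptor promoters (Ccr3), and in 3.75% of all promoters. Among the lower ligands with a promoter, 3 of 7 held it. The interferon-response core, GAAA followed by any 2 bases and GAAA again, matched in 3 ligand promoters (Ccl19, Cxcl10 and Cxcl14), in 0 receptor promoters and in 3.04% of all. TATAAA matched in 7 ligand and 3 receptor promoters and in 13.0% of all, and the AP-1 motif TGANTCA in 2 ligand promoters (Ccl9 and Cxcl10), in 2 receptor promoters and in 6.87% of all. Such a match is only a description of the letters and not a bound site.

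Cx3cl1, or fractalkine, the membrane-tethered ligand of Cx3cr1, was at 8.67 from 584 fragments at D0 and at 2.18 from 125 at D7. Its ratio of 0.252 (0.206 to 0.306) was close to that of Cxcl12. Ccl25, a thymic and intestinal chemokine, was at 1.95 and 1.80, and its fragment numbers are approximate because the length of its transcript was uncertain. Ccl27a, which attracts skin-homing lymphocytes, was at 3.55 and 3.66, and it overlaps Il11ra1 on the opposite strand. Ccl28, a mucosal chemokine, was at 0.118 and 0.169 from 9 and 11 fragments. The intervals of Ccl25, Ccl27a and Ccl28 all included 1.

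The remaining 14 ligands were at 0 in a library. In both libraries 9 were at 0, namely Ccl1, Ccl21a, Ccl21b, Ccl21c, Ccl22, Ccl26, Ccl27b, Cxcl11 and Cxcl17. Their limits at D0 ran from 0.0686 for Ccl22 to 1.36 for Ccl26, so short ligands were the least well bounded. The Ccl21 copies, which guide lymphocytes to lymph nodes, and Ccl27a and Ccl27b are near-identical genes between which reads can be split. Ccl17, Ccl19, Ccl20 and Ccl24 were at 0 at D7 only, with 4, 1, 5 and 1 fragments at D0. Cxcl13, the B cell attractant, was at 0 at D0 and at 0.391 from 7 fragments at D7. That was 2.72-fold above the D0 limit worth 3 fragments, a figure that leaves out the counting error of the 7 fragments.

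**Figure D4:**
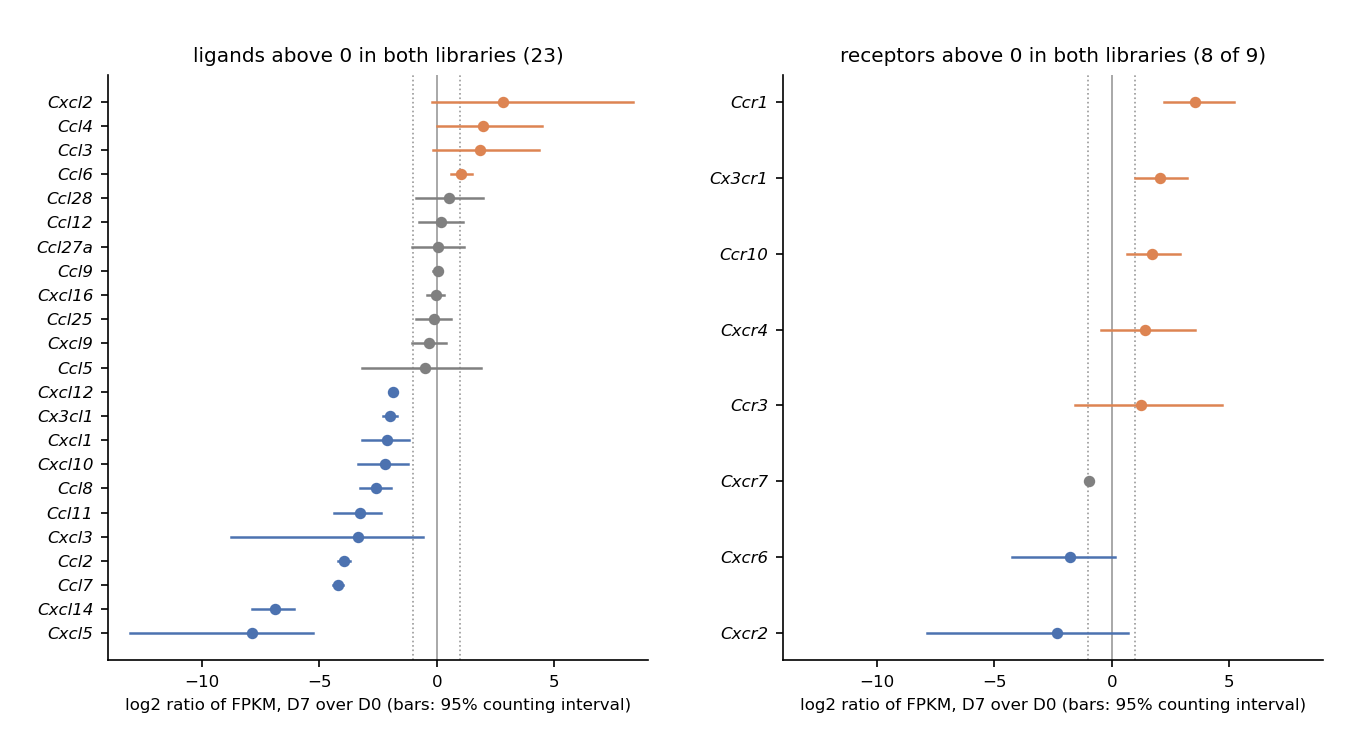
Log2 ratio of FPKM, D7 over D0, with the 95% counting interval as a bar, for the 23 ligands and 8 of the 9 receptors above 0 in both libraries, with dotted lines at 2-fold. All 11 lower ligands (blue) have intervals below 0, and among the higher receptors (orange) those of Ccr1, Cx3cr1 and Ccr10 lie above 0.

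Cxcr7 dominated the receptors and was the only one with an FPKM of at least 1 at D0. It was at 15.5 from 962 fragments at D0 and at 7.95 from 419 at D7, a ratio of 0.512 (0.456 to 0.575) that lay just inside the 2-fold threshold. It was 92.4% of the receptor sum at D0 and 66.3% at D7. Without it, the sum of the other 18 receptors was 1.28 at D0 and 4.04 at D7, or 3.17 times the D0 sum, so the direction of the receptor sum turned on this atypical receptor. Cxcr4, the signalling receptor for the same ligand, was at 0.114 and 0.302 from 4 and 9 fragments, and its interval of 0.739 to 11.8 included 1.

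The CC receptors were low at D0, and all 4 that were above 0 in both libraries were higher at D7. Not all 4 are given here by name. Ccr1 (chr9:123962124-123968692, minus strand), a receptor for Ccl3, Ccl5, Ccl6 and Ccl9 on myeloid cells, was at 0.0878 from 5 fragments at D0 and at 1.01 from 49 at D7, a ratio of 11.5 (4.62 to 37.1). Ccr10, a receptor for Ccl27a and Ccl28, was at 0.301 and 0.993 from 10 and 28 fragments, a ratio of 3.30 (1.55 to 7.61), and it overlaps Cntnap1 on the opposite strand. Ccr3, the eotaxin receptor, was at 0.0301 and 0.0708 from 2 and 4 fragments, and its interval included 1. Outside the CC class, Cx3cr1, the fractalkine receptor of monocytes and macrophages, was at 0.13 from 10 fragments and at 0.537 from 35. Its ratio was 4.12 (2.00 to 9.32), and its annotated span overlaps several other genes.

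Ccr2, the receptor for Ccl2, Ccl7 and Ccl12, was at 0 in both libraries, below a limit of 0.0496 at D0 and 0.0583 at D7. Cxcr6, the receptor for Cxcl16, was at 0.326 from 12 fragments and at 0.0960 from 3, past 2-fold lower with an interval of 0.0533 to 1.09 that included 1, and it lies within Fyco1 on the opposite strand. Cxcr2, the receptor for Cxcl1, Cxcl2, Cxcl3 and Cxcl5, was at 0.0976 and 0.0191 from 6 fragments and 1 fragment, also with an interval that included 1. At 0 in both libraries were Ccr1l1, Ccr2, Ccr4, Ccr6, Ccr7, Ccr8 and Cxcr1. Ccr9 and Cxcr3 had 1 fragment each at D7 and 0 at D0, and Cxcr5 had 1 fragment at D0 and 0 at D7.

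Ccr1 and Cx3cr1 are known from myeloid cells, and macrophage genes were also higher at D7. Of 14 macrophage markers, 13 were above 0 in both libraries. Of these, 12 (92.3%) were higher and 0 lower, beside 18.5% and 13.2% among all genes. The median log2 ratio of these 13 was 2.84, and the summed FPKM of all 14 was 156 at D0 and 591 at D7. Cd14 was within 2-fold, and Marco was at 0 at D0 and 0.243 at D7. Adgre1, the F4/80 antigen, was at 1.40 and 14.3, and Csf1r, the receptor for the growth factor of macrophages, was at 2.63 and 10.4. Neutrophil markers summed to 0.904 at D0 and 12.2 at D7. Only 3 of 8 were above 0 in both libraries, and these 3 (S100a8, Mpo and Camp) were higher, while S100a9, Elane, Ltf and Retnlg were at 0 in both. T cell markers summed to 0.295 and 0.0873, with Cd3d, Cd3g, Cd4, Cd8a and Cd2 at 0 in both, B cell markers to 0.0934 and 0.131, with Ms4a1 and Pax5 at 0 in both, and NK cell markers to 0.0735 and 0. The sums for dendritic cells were 1.69 and 2.63, with Flt3 and Cd209a among the markers at 0 in both, those for mast cells 0.198 and 0.389, and those for endothelium 1.62 and 2.69. Their part in the receptor result was not tested.

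Lower ligands stood beside mural and preadipocyte genes that were partly lower too. Of 6 mural cell markers, 3 (50%) were lower and 2 (33.3%) higher, beside 13.2% lower and 18.5% higher among all genes. The mural markers summed to 2247 at D0 and 367 at D7, nearly all of it Acta2, a smooth muscle actin, at 2164 and 319. The 2 higher ones, Rgs5 at 0.571 and 1.65 and Kcnj8 at 0.417 and 0.928, add little to that sum. Of 8 preadipocyte markers, Pdgfrb, Thy1 and Col1a1 (37.5%) were lower and Cd34 and Dlk1 (25%) higher. Pdgfra, a marker of adipocyte precursors, was at 52.1 and 50.7. The part of these cells in the ligand result was not tested.

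Of 36 known ligand and receptor pairs set side by side, 3 had a lower ligand and a higher receptor, namely Ccl11 with Ccr3, Cxcl12 with Cxcr4, and Cx3cl1 with Cx3cr1. Ccr3 rests on 2 and 4 fragments and Cxcr4 on 4 and 9, and both intervals included 1. In 4 pairs both ligand and receptor were higher. Ccr1 was higher, and of its 4 ligands here Ccl3 and Ccl6 were past 2-fold higher, with an interval that included 1 for Ccl3, while Ccl5 and Ccl9 were within 2-fold. In 3 pairs both were lower, all of them Cxcr2 with Cxcl1, Cxcl3 or Cxcl5, while Cxcl2 with Cxcr2 was the 1 pair with a higher ligand and a lower receptor. These 4 pairs share the Cxcr2 value, which rests on 6 fragments and 1 fragment with an interval that included 1. In 7 pairs the ligand was above 0 in a library and the receptor was at 0 in both. Ccl2 and Ccl7, at 206 and 297 at D0, were among these, since Ccr2 was not detected in either library. Ccl8, at 23.0 at D0, likewise stood beside Ccr8 at 0, with a limit of 0.14 at D0.

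Genes that carry the signal of chemokine receptors were more often higher than lower. Of 26 such genes, 25 were above 0 in both libraries, 11 (44%) were higher and 1 (4%) was lower, against 18.5% and 13.2% of all genes, with a median log2 ratio of 0.55. Gnai2, the most abundant inhibitory G protein subunit here, was at 296 and 168, while Gnai1 was at 9.46 and 39.1, a ratio of 4.14 (3.78 to 4.54). Gnb1, a G protein β subunit, was at 160 and 110, and the GTPase Rac1 at 178 and 153. Regulators of G protein signalling went in both directions. Rgs2 was at 1.66 and 38.8, a ratio of 23.3 (19.2 to 28.9), and Rgs16 at 70.6 and 16.3, a ratio of 0.231 (0.212 to 0.252). The β-arrestin gene Arrb1 was at 2.53 and 9.95, and Ptk2b, a kinase activated by calcium, at 5.58 and 19.5. The other higher genes were Grk3, Pik3cg, Plcb2, Rac2, Dock2, Vav1 and Was, of which Rac2, Dock2, Vav1 and Was are known mainly from blood cells. All of these 7 had FPKM of at most 2.09 in either library.

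Genes that sense inflammatory signals and switch on chemokines are given beside the 18.5% higher and 13.2% lower of all genes. The 18 genes of NF-κB and interferon control had a median log2 ratio of -0.0027, with 2 higher and 2 lower, or 11.1% each. The higher ones were inhibitors of NF-κB, Nfkbia at 11.3 and 24.5 and Tnfaip3 at 1.10 and 2.40. The lower ones belong to interferon signalling, Stat2 at 41.1 and 18.6 and Irf9 at 33.1 and 16.3. Rela, an activating subunit of NF-κB, was at 32.2 and 23.9. Of 15 cytokines and sensors upstream, 11 were above 0 in both libraries. Of these 11, 3 (27.3%) were higher and 2 (18.2%) lower, with a median log2 ratio of -0.05. Il6, an inflammatory cytokine, was at 9.90 from 204 fragments and at 0.484 from 8, a ratio of 0.0489 (0.0197 to 0.0928). Il1r1, the interleukin-1 receptor, was lower at 33.1 and 16.1, while Ifngr1, a chain of the interferon-γ receptor, was higher at 18.2 and 71.3, and Tlr4, the endotoxin receptor, at 4.01 and 10.2. The TNF receptor gene Tnfrsf1a was at 143 and 138, and Ifngr2 at 39.7 and 28.5. Tnf was past 2-fold higher at 0.0647 and 0.267 but with 2 and 7 fragments and an interval that included 1. Il1a, Il1b, Ifng and Ifnb1 were at 0 in both libraries.

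**Figure D5:**
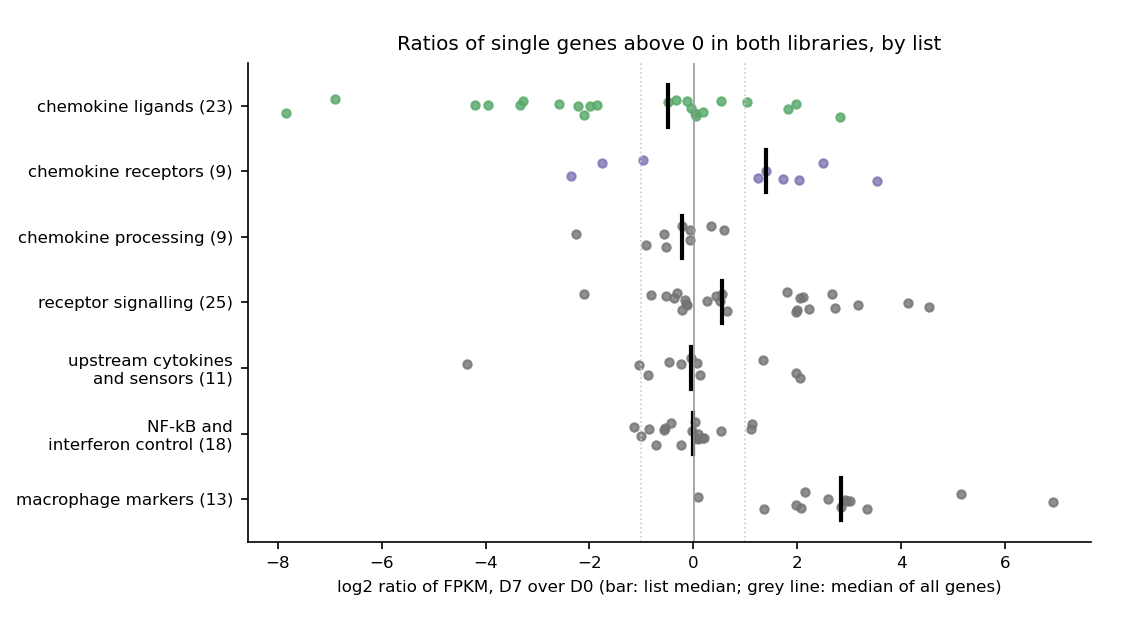
Log2 ratio of FPKM, D7 over D0, for single genes above 0 in both libraries, by list, with a black bar at each list's median and a grey line at the median of all genes (0.015). Ligands have a median of -0.49 and receptors of 1.41, while the genes of NF-κB and interferon control have a median that lies close to 0.

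Of 10 genes of enzymes that process chemokines, 9 were above 0 in both libraries. Of these, 0 were higher and 1 (11.1%), the protease gene Mmp9, was lower at 0.267 and 0.0555, beside 18.5% higher and 13.2% lower among all genes. The most abundant were Mmp2, a matrix protease that cleaves Ccl7 and Cxcl12, at 122 and 155, Furin, a proprotein convertase, at 40.7 and 38.7, and Adam10, which sheds Cx3cl1 and Cxcl16 from the membrane, at 34.2 and 29.3. Adam17, another such sheddase, was at 16.9 and 25.5. Dpp4, which trims several chemokines, was at 0.242 and 0.129 with an interval that included 1.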

How the data were processed

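RNA-Seq values of 2 libraries, 1 per stage, were analysed. The authors removed low-quality, duplicate and rRNA reads, aligned the rest to mm10, and deposited an FPKM value for each gene in each library. The methods name SOAP2 as the aligner with up to 5 mismatches, and the submitters' processing notes name Bowtie2. The use of strand in counting is not given in the sources used here, so values of overlapping genes are uncertain. Of 27324 rows, 3963 without values were not used. Libraries were grouped by the GEO titles.

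Ratios were taken from the FPKM values as deposited, without pseudocount or rescaling, with the study's 2-fold threshold. Fragments were recovered from 649 genes with a single exon, after taking 179 bp (D0) or 182 bp (D7) from the gene length, so that 100% of the 92 and 98 low values were whole to within 0.1. A fragment was worth 1.18 times more FPKM at D7 than at D0. For 49 members the length of the named transcript was used, and 34 of 37 of their low values were whole within 0.15. Gene positions come from the GENCODE annotation of GRCm38. Members and lists were chosen with earlier results of these data known, so list counts carry no test. A member was described with both values where its FPKM was at least 1 in a library, or where it passed 2-fold with at least 10 fragments in a library, which selected 24 members. Of the members and list genes, 3 entered all counts but are not reported here by name. Other members were named for completeness after their values were seen. List genes were named if among the highest 3 by FPKM, if markers at 0, or if past 2-fold at an FPKM of at least 5, and a few others were added after their values were seen. Alternatives were pseudocounts of 0.1 and 1, TPM, a floor of 0.01 together with scaling by each library's median, summing rows of a symbol, filters on low values and a 4-fold threshold. Chosen after seeing the data were members whose interval excluded 1, members that overlap no other gene, and receptors without Cxcr7. The scripts were tested on simulated data. The tools were scipy 1.17.1, pandas 2.3.3 and numpy 2.4.6 under Python 3.11.15, with plots by matplotlib 3.10.9.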

Additional observations from a re-analysis of the deposited data

How the results depend on the processing

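The count of lower ligands (11) ranged from 9 to 15 over all alternatives. Ligands higher (4) became 0 with a pseudocount of 1, 2 at FPKM of at least 1, 1 at 4-fold and 2 when intervals excluded 1. Receptors higher (6) became 0, 1 and 3 with the first 3 of these settings. Receptors lower (2) became 1 with a pseudocount of 0.1, at FPKM of at least 0.1, at 10 fragments over both libraries, at 4-fold and without overlapping genes, 0 with a pseudocount of 1, at FPKM of at least 1 and when intervals excluded 1, and 4 with a floor of 0.01 and division by the library median. The median log2 ratio of ligands (-0.49) was -0.70 and -0.15 with pseudocounts of 0.1 and 1, -1.99 at FPKM of at least 1, -1.85 at 10 fragments and also without overlapping genes, and -2.59 when intervals excluded 1. For receptors (1.41) it was 0.43 and 0.0552 with these pseudocounts, 1.72 at FPKM of at least 0.1 and at 10 fragments, 1.28 at FPKM of at least 1, 2.04 when intervals excluded 1 and 1.56 without Cxcr7. It turned to -0.35 with the floor and library median, where genes at 0 in both libraries enter at that shift of -0.35 by construction. All genes higher (2767) became 1533 with a pseudocount of 1 and 1211 at 4-fold, and all genes lower (1980) became 1021, 578 and, with the floor, 3832. Of 24 named members, 15 stayed on their side of 2-fold under all alternatives, 9 changed side (among them Ccl4, Ccl6, Ccr1, Ccr10, Cx3cr1, Cxcl3 and Cxcr6 with a pseudocount of 1, Ccl6 also and Cxcr7 only with the floor), and 0 reversed. No paired analysis was possible because there was 1 library per stage and the labels give no replicate numbers. Low receptor counts limit the depth at which any receptor difference could be seen.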

Other observations

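Genes of the chemokine system whose symbols fall outside the rule were also read, and this list was chosen with earlier results of these data known. Of 13, 10 were above 0 in both libraries. Of these, 4 (40%) were higher and 2 (20%) lower, beside 18.5% and 13.2% among all genes, and the median log2 ratio was -0.26. The list includes Cxcr7 under its newer name. Rarres2, the chemerin gene, whose product is an adipokine and a leukocyte attractant, had FPKM values of 1.85 (D0) and 40.5 (D7), and the ratio was 21.9 with an interval of 14.8 to 35.2. Its receptor gene Cmklr1 was at 1.71 and 3.58, a ratio of 2.09 (1.63 to 2.70). Pf4, a CXC chemokine of platelets and macrophages, was at 1.14 and 10.4, a ratio of 9.12 (4.70 to 19.8), while its relative Ppbp was at 1.34 from 26 fragments at D0 and at 0 at D7. These values place chemoattractant genes that were higher at D7 beside the ligands that were lower.

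The other atypical receptors were below Cxcr7 in both libraries, and Ackr4 was the highest of them. Ackr4, which takes up Ccl19, Ccl21 and Ccl25, was at 4.27 from 203 fragments and at 0.824 from 33, a ratio of 0.193 (0.128 to 0.277). Ackr2 was at 0 in both libraries, Ackr1 had 1 and 4 fragments, and Ccrl2 had 11 fragments and 1 fragment. Mif, a cytokine that also binds Cxcr4, was the most abundant gene of this list at 553 and 286, a ratio of 0.517 (0.490 to 0.546), inside 2-fold. Its other receptor, Cd74, had 4 fragments in each library.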
